A study of Mus musculus with 12 samples.

Results

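The complement system was described here through 32 genes for its components, regulators and receptors, taken by symbol from the 25676 genes of a liver expression table, and all 32 were among the 12278 genes that entered the tests. By the main cell known to make each product, 21 genes were placed in a hepatocyte-made class, 6 (*C1qa*, *C1qb*, *C1qc*, *Cfp*, *C3ar1* and *C5ar1*) in a macrophage-made class and 5 (*Cfd*, *C7*, *Cd55*, *Cr1l* and *Cd93*) in neither. The table came from bulk RNA sequencing of whole liver from 12 C57BL/6 mice aged 3-4 months. The 4 groups were WT males, WT females, KO males and KO females, with 3 mice each, where KO stands for Foxa3-Cre YAP1 KO. *Foxa3*-driven Cre acts in the embryonic endoderm, so the deletion reaches hepatocytes and bile duct cells alike but not macrophages, and the labels do not say whether the WT mice carried Cre or floxed alleles. YAP1 switches on genes as the partner of DNA-binding TEAD factors.

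Complement is a cascade of plasma proteins that marks and lyses targets. C1q, the mannose-binding lectins and the alternative pathway all lead to cleavage of C3, and C5 to C9 then assemble into the membrane attack complex. Hepatocytes secrete most of the plasma components, whereas C1q and properdin come mainly from myeloid cells, which also carry the receptors for the C3a and C5a fragments.

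Promoter sequences are given first for the genes on which the sex comparisons turn (*C6*, *C8a*, *C8b* and *C9*) and for *C3*, the most abundant member. Each is the RefSeq window of 300 bases, 250 before and 50 after the annotated start, 5′ to 3′ on the gene's strand, in build GRCm38.p6. The windows lie at chr15:4726960-4727259 on the plus strand for *C6*, chr4:104876349-104876648 on the minus strand for *C8a*, chr4:104766067-104766366 on the plus strand for *C8b*, chr15:6445096-6445395 on the plus strand for *C9* and chr17:57228087-57228386 on the minus strand for *C3*. Capitals mark matches, on either strand, to 4 motifs: TTCNNNGAA (bound by STAT5, which carries the growth hormone signal), GGAATG (TEAD), TTGCNNAA (C/EBP, the family of hepatocyte and acute-phase factors) and GGGNNNTTCC (NF-kB).
C6: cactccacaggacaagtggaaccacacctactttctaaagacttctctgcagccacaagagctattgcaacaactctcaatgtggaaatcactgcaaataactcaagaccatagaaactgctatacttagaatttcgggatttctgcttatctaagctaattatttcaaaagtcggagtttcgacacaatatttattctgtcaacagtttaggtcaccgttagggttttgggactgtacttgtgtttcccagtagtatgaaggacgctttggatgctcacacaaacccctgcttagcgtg
C8a: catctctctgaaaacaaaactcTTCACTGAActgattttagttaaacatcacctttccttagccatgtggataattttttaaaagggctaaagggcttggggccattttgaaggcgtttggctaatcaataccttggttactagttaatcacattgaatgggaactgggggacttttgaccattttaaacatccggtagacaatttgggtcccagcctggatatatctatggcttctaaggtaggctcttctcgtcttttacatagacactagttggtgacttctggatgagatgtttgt
C8b: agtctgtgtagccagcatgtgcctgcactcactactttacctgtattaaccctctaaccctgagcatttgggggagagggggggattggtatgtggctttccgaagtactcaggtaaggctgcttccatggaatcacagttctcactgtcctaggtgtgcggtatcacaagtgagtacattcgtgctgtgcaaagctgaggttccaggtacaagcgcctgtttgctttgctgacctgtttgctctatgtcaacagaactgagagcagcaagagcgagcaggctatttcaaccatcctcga
C9: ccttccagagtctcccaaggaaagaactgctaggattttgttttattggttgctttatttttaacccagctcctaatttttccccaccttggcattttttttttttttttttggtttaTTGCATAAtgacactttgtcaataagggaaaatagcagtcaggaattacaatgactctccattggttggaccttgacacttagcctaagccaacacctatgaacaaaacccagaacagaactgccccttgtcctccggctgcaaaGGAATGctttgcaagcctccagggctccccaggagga
C3: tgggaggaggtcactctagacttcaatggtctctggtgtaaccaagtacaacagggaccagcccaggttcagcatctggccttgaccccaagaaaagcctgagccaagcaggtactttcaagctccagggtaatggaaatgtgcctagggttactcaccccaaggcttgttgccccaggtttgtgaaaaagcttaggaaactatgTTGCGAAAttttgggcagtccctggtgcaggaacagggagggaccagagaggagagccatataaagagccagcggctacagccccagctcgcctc
The *C8a* window held 1 STAT5 match at -228 from the start. The *C9* window held 1 C/EBP match at -132 and 1 TEAD match at 14, and the *C3* window 1 C/EBP match at -45. The windows of *C6* and *C8b* held none of these letters. Of the 32 members, 23 had an entry in the promoter table, with 25 windows in all. A STAT5 match was in the windows of 5 members (*C8a*, *Masp2*, *C1ra*, *Vtn* and *C7*), against 8.30% of 32851 promoters. A TEAD match was in those of 5 members against 14.7%, a C/EBP match in those of 4 against 10.8%, and an NF-kB match in that of *C3ar1* alone against 5.56%. In the annotated genome several members lie on the same chromosome. *C1qb*, *C1qc* and *C1qa* lie on chromosome 4 with gaps of 3.62 and 2.85 kb, *C8b* and *C8a* lie 11.1 kb apart on the same chromosome, and on chromosome 15 *C6* and *C7* lie 174 kb and *C7* and *C9* 1382 kb apart.

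*Yap1* itself ranged from 23.0 to 34.9 TPM in the WT livers and from 0.994 to 3.11 in the KO livers, with no overlap (log2 fold change -3.36, exact permutation test within sexes, two-sided p = 0.005, the smallest that its 400 arrangements allow). Values are TPM, a transcript's share of its library scaled for gene length, each library sums to the same total, and 14321 to 15482 genes were above 0 in each. The read depth was not estimated here. Fold changes are differences in log2(TPM + 1), which understates changes of low genes, and adjusted p-values are from limma with Benjamini-Hochberg adjustment over all tested genes. The p-values weigh each difference against the spread between these mice and do not cover the choice of scale. On the deposited scale the median tested gene was itself higher in KO by 0.35, and after median-of-ratios rescaling it stood at -0.03, so rescaled values are given beside the results that turn on the scale. The summed hepatocyte markers (8 genes) spanned 85384 to 112847 TPM in WT and 85231 to 117393 in KO livers, and none of these genes was at 0. Within that sum *Trf* was higher (10119 to 29804 TPM in the mean), *Ttr* lower (7453 to 3537 TPM), *Hnf4a* higher on the deposited scale and the other 5 did not pass. When rescaled, 1 was higher and 2 lower. The labels give the WT male 2 library a number from another series than the other 11, without saying what that marks. It had the smallest rescaling factor, 0.721 against 0.818 to 1.32, and the highest WT level of *C6*, *C8a*, *C8b*, *C9*, *C4b* and *Cfb*. Without it, 23 members were higher and 3 lower in KO over both sexes, where 47.0% of tested genes were higher and 5.89% lower in the same fit. In males 19 were higher and 1 lower, against 33.4% and 2.88%. Between the WT sexes 4 were higher and 1 lower in males, against 0.700% and 1.67%. *C6* alone kept its interaction of genotype and sex (-3.31, limma adjusted p = 8.79e-06), against 0.717% of tested genes. In whole liver, more cells of a type and more RNA per cell cannot be told apart.

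Over both sexes the 6 macrophage-made members rose together in KO livers, and *C3*, *Clu*, *C4b*, *C4bp* and *C6* rose among the hepatocyte-made ones. *C8g*, *Mbl2* and *Masp2* fell. Within the sexes on the rescaled values, *Clu* was higher in both, *C3* in males only, *C6* in females only and *C4b* and *C4bp* in neither. There *C8g* and *Masp2* were lower in both sexes and *Mbl2* in females only. Of the 32 members, 23 were higher and 3 lower in KO at an adjusted p under 0.05, with a median log2 fold change of 0.51. Of all tested genes 50.1% were higher and 4.82% lower. After rescaling 13 members were higher and 4 lower, against 21.3% and 18.0% of tested genes, and the members' median was 0.17. Higher on both scales were 13 members and lower on both were 3. All 6 KO livers lay above all 6 WT livers for 15 members and below them for 1, *C8g*, against 28.7% and 1.88% of tested genes. The members made up 1.38% ± 0.147 (SD, n = 6) of all TPM in WT and 2.84% ± 0.460 (n = 6) in KO livers. *C3* alone was 25.5% ± 4.36 of the members' sum in WT and 33.5% ± 4.45 in KO livers, with overlap (18.0% to 31.2% and 26.5% to 40.0%). In males its share was 22.8% ± 4.13 and 35.5% ± 3.91 (n = 3 each), and in females 28.2% ± 2.78 and 31.4% ± 4.65. The difference in share was not tested.

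**Figure D1:**
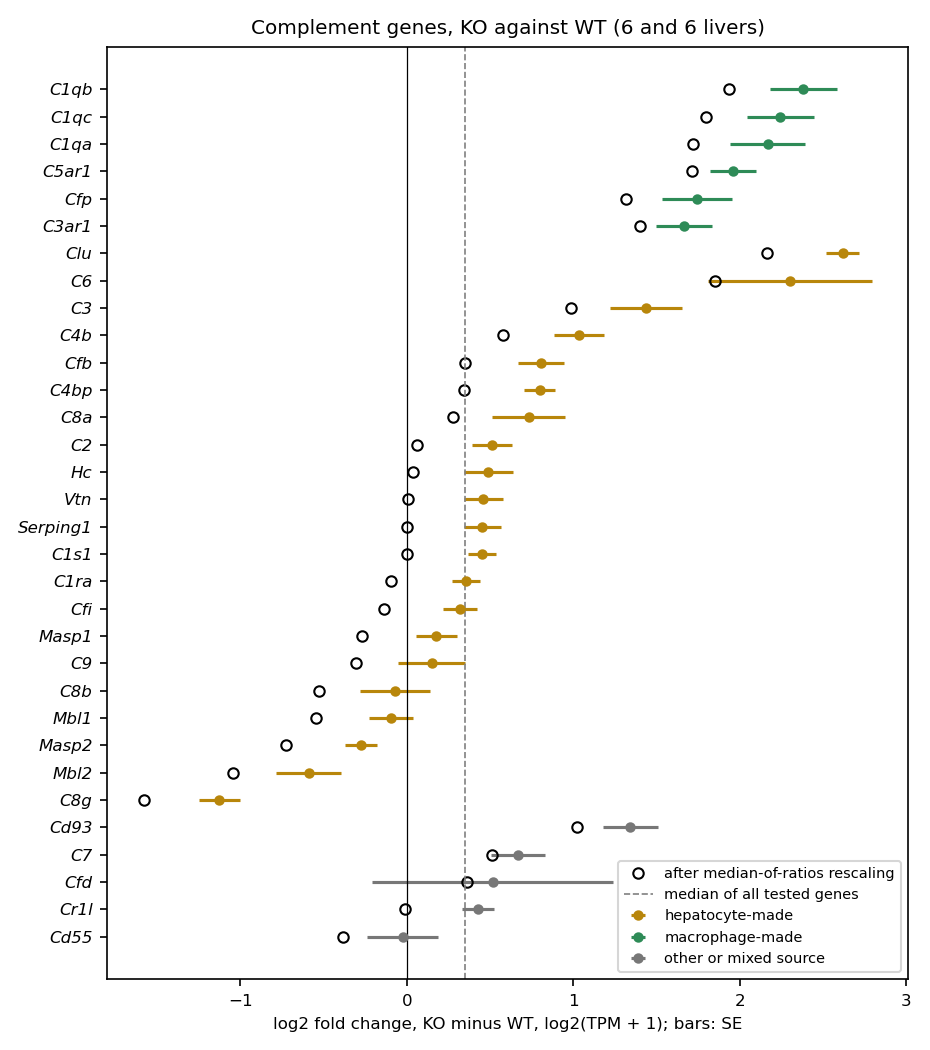
Log2 fold change of each of the 32 complement genes, KO minus WT, with its SE (filled points, coloured by source class; 6 livers per genotype) and after median-of-ratios rescaling (open circles). The 6 macrophage-made genes lie at 1.66 or more on the deposited scale, the hepatocyte-made genes spread from -1.13 (*C8g*) to 2.62 (*Clu*), and the dashed line is the median of all tested genes at 0.35.

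By class, all 6 macrophage-made members were higher on both scales, with a median of 2.06 (1.71 rescaled). Of the 21 hepatocyte-made members 14 were higher, 3 lower and 4 (*Mbl1*, *Masp1*, *C8b* and *C9*) did not pass, with a median of 0.45, against the 50.1% higher and 4.82% lower among tested genes. On the rescaled values 5 of them were higher (*C4b*, *C3*, *C6*, *C4bp* and *Clu*), 4 lower (*Mbl1*, *Mbl2*, *Masp2* and *C8g*), and the median was -0.00. With 21.3% of tested genes higher and 18.0% lower on that scale, the hepatocyte-made class was close to the background share in both directions. Of the remaining 5 members, *C7*, *Cr1l* and *Cd93* were higher, and *Cr1l* was so on the deposited scale only. *C5ar1* and *C7* passed the filter on low values only through the KO livers, where their means were 4.34 and 0.976 TPM against 0.370 and 0.237 in WT. In counts without this pair, added after the data were seen, 21 of 30 members were higher and 3 lower, with a median of 0.50 (11 higher, 4 lower and 0.05 when rescaled), and 5 of 5 macrophage-made members were higher, with a median of 2.17.

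The classical pathway begins with C1q, whose A, B and C chains are encoded by *C1qa*, *C1qb* and *C1qc*. *C1qb* was at 27.2, 18.2 and 23.8 TPM in WT males, 72.8, 37.4 and 44.5 in WT females, 192, 146 and 148 in KO males, and 251, 162 and 199 in KO females. Every KO liver lay above every WT liver, and among WT livers the females lay above the males. The log2 fold change of *C1qb* was 2.38 (SE 0.199, limma adjusted p = 6.18e-07). *C1qa*, at 15.0 to 76.6 TPM in WT and 123 to 262 in KO, rose by 2.17 (SE 0.224, adjusted p = 4.19e-06). *C1qc*, at 15.8 to 56.4 TPM in WT and 101 to 214 in KO, rose by 2.24 (SE 0.201, adjusted p = 1.20e-06). The 3 chains kept a similar level to each other in each group, with KO means of 171, 183 and 133 TPM for *C1qa*, *C1qb* and *C1qc*. The proteases that C1q activates are hepatocyte products and moved little. *C1ra* rose by 0.36 and *C1s1* by 0.45, but on the rescaled values they stood at -0.10 and -0.00 and did not pass. Reads of *C1ra* and *C1s1* could be shared with their close copies *C1rb* and *C1s2*.

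Properdin, the stabiliser of the alternative C3 convertase, is encoded by *Cfp*. *Cfp* was at 7.02, 5.93 and 6.88 TPM in WT males, 25.7, 12.7 and 16.2 in WT females, 38.2, 21.7 and 38.5 in KO males, and 59.8, 39.9 and 43.4 in KO females. The highest WT female exceeded the lowest KO male, so the genotypes overlapped across the sexes, though not within either. *Cfp* rose by 1.74 (SE 0.208, limma adjusted p = 1.42e-05). *C3ar1* and *C5ar1* encode the receptors for C3a and C5a. *C3ar1* was at 0.320 to 1.20 TPM in WT and 2.54 to 6.79 in KO livers and rose by 1.66 (SE 0.170, adjusted p = 3.74e-06). *C5ar1* was at 0.179 to 0.729 TPM in WT and 3.29 to 5.92 in KO livers and differed by 1.96 (SE 0.140). Neither receptor overlapped between the genotypes. *C5ar1* entered the tests only through its KO level, and with all genes above 0 tested its adjusted p was 9.48e-07. *Cd93*, once described as a C1q receptor and found on endothelial and myeloid cells, was at 0.799 to 1.86 TPM in WT and 2.71 to 5.85 in KO and rose by 1.34 (SE 0.166, adjusted p = 1.95e-05).

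Markers of macrophages and recruited myeloid cells rose with these genes. Of all tested genes 50.1% were higher and 4.82% lower, or 21.3% and 18.0% when rescaled. The neutrophil and stellate cell lists lay nearer to those shares. Of 9 Kupffer cell and macrophage markers 8 were higher in KO (7 when rescaled), and their summed level was 86.4 to 287 TPM in WT and 516 to 1044 in KO livers. The exception was *Cd163*, a scavenger receptor of resident macrophages. *Cd163* was at -0.37 over both sexes (adjusted p = 0.185), fell when rescaled (-0.70, adjusted p = 0.0198) and fell in females on both scales (-0.85, adjusted p = 0.0287, and -1.08, adjusted p = 0.0108). The 6 markers of recruited myeloid cells summed to 16.6 to 30.2 TPM in WT and 191 to 309 in KO livers. Most of that sum was *Cd9*, at 15.2 to 27.0 and 165 to 270.0 TPM, a gene that other liver cells also express. *Trem2*, of lipid-laden macrophages, was at 0.134 to 1.02 TPM in WT and 7.53 to 21.8 in KO livers. *Ccr2*, *Gpnmb* and *Itgam* entered the tests only through their KO levels, and the other 3 of this list were higher. None of the 15 macrophage and recruited myeloid genes was at 0 in all livers of a genotype. Neutrophils also carry *C5ar1* and *C3ar1* and make properdin. Of 6 neutrophil markers 4 were tested and 3 were higher in KO (*S100a8*, *S100a9* and *Csf3r*), *Csf3r* alone when rescaled, with a median of 1.21. Within the sexes 0 passed in males and 1 in females. Their sum was 0.218 to 20.2 TPM in WT and 12.2 to 45.8 in KO livers, with overlap, and *Ly6g* was at 0 in all WT livers and at most 0.199 TPM in KO. Of 6 markers of stellate cells and fibroblasts 4 were higher (*Pdgfrb*, *Des*, *Dcn* and *Col1a1*, with *Col1a1* at 4.01), and 2 were higher and 1 lower when rescaled. *Lrat* went the other way, at 3.20 to 9.25 TPM in WT and 1.64 to 5.79 in KO livers, with overlap. That list summed to 54.3 to 155 TPM in WT and 114 to 285 in KO livers, none of it at 0. Of 6 endothelial markers 1 was higher and 1 lower. Taken against 1 marker at a time, *C1qa* kept close to *Csf1r*, the receptor of macrophages for their growth factor, with a log2 ratio of 1.82 ± 0.577 (SD, n = 6) in WT and 2.08 ± 0.440 in KO. The log2 ratio to *Clec4f*, a Kupffer cell lectin, was 0.10 ± 0.281 and 0.66 ± 0.516. The ratio to *Lyz2*, a lysozyme of myeloid cells, was -0.09 ± 0.211 in WT and -0.67 ± 0.229 in KO. These ratios were not tested, and the part of these cell types in the rise of the macrophage-made members was not tested.

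**Figure D2:**
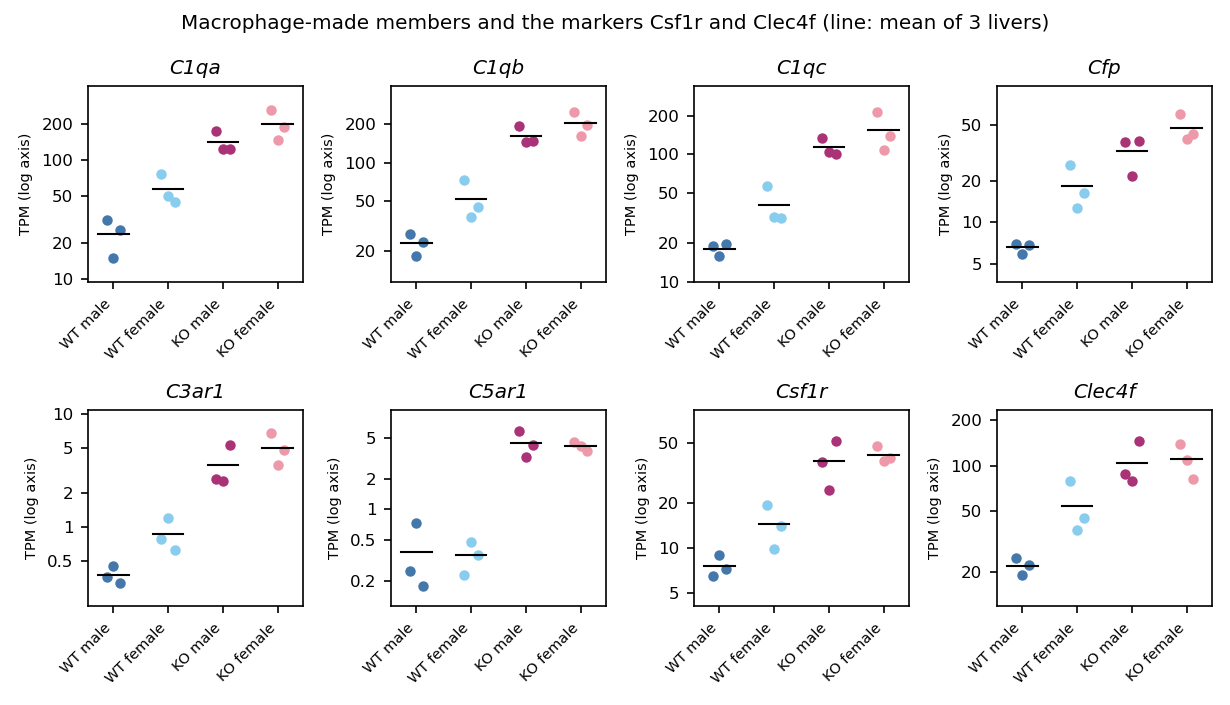
TPM of the 6 macrophage-made complement genes and of the macrophage markers *Csf1r* and *Clec4f* in each liver (points) with the mean of each group (line), on log axes. Every KO liver lies above every WT liver for the 3 C1q chains, *C3ar1* and *C5ar1*, and WT females lie above WT males for the C1q chains and *Cfp*.

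The lectin pathway starts with the mannose-binding lectins and their proteases. *Mbl2* was at 365, 303 and 538 TPM in WT males, 1016, 1125 and 1036 in WT females, 398, 423 and 280.3 in KO males, and 471, 565 and 479.7 in KO females. WT females stood apart from all other livers. *Mbl2* fell by 0.59 over both sexes (SE 0.195, limma adjusted p = 0.0204), by 1.07 in females (SE 0.209, adjusted p = 0.00179), and was at -0.11 in males (adjusted p = 0.674). When rescaled it was at -1.04 over both sexes, -1.41 in females and -0.68 in males (adjusted p = 0.000725, 0.000751 and 0.0508). The sex difference in that effect was 0.96 (SE 0.295) and did not pass on either scale (adjusted p = 0.288, and 0.642 when rescaled). *Masp2*, the protease that cleaves C4 and C2, fell by 0.28 (SE 0.0971, adjusted p = 0.0271). The *Masp2* call was lost on leaving out any of 6 single libraries (WT female 1 or 2, WT male 3, or KO female 1, 2 or 3), with an adjusted p of at most 0.0695, and the rescaled change was -0.73 (adjusted p = 2.83e-05). *Mbl1*, the other lectin, was at -0.09 on the deposited scale (adjusted p = 0.565) and -0.55 on the rescaled one (adjusted p = 0.00850). *Masp1*, at 34.2 to 61.9 TPM over the 12 livers, passed on neither scale.

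At the level of the convertases, *C3* was the most abundant member in both genotypes. It was at 3180, 4106 and 2128 TPM in WT males, 4369, 3818 and 3621 in WT females, 9033, 9766 and 14679 in KO males, and 6113, 9835 and 8533 in KO females. The genotypes did not overlap. *C3* rose by 1.44 (SE 0.216, limma adjusted p = 0.000101), and by 0.98 on the rescaled values (adjusted p = 0.00347). When rescaled, *C3* passed in males (1.28, adjusted p = 0.00810) but not in females (0.69, adjusted p = 0.114). *C4b*, the C4 of the classical and lectin convertases, rose by 1.03 (SE 0.151, adjusted p = 8.34e-05), and by 0.58 when rescaled (adjusted p = 0.0176). It was at 423 to 808 TPM in WT and 843 to 1463 in KO livers, without overlap. Within the sexes, *C4b* passed in neither when rescaled (adjusted p = 0.188 in males and 0.0649 in females). Its near-identical copy *C4a* was not found by symbol, so reads of the pair may be combined or split. *Cfb*, the factor B of the alternative convertase, spanned 645 to 1113 TPM in WT and 1156 to 1832 in KO livers and rose by 0.81 (SE 0.140, adjusted p = 0.000322), but at 0.35 it did not pass when rescaled (adjusted p = 0.0957). *C2*, its counterpart in the classical pathway, rose by 0.51 and stood at 0.06 when rescaled (adjusted p = 0.777). *C2* and *Cfb* lie 0.085 kb apart on one strand of chromosome 17. Factor D, the protease that cleaves factor B, is encoded by *Cfd*, chiefly an adipocyte gene, and did not pass (limma adjusted p = 0.565). It was above 4 TPM only in KO female 3, at 25.0 TPM. The same library held the adipocyte hormone gene *Adipoq* at 3.73 TPM, and the summed 4 adipocyte markers reached 8.06 TPM in KO females, were 0 in all WT females and KO males and were at most 0.776 in WT males. The part of adipose tissue in the *Cfd* level was not tested.

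Regulators that restrain the cascade were mostly higher on the deposited scale alone. *Clu* encodes clusterin, a secreted chaperone that binds the terminal complex. It was at 1083, 1241 and 1048 TPM in WT males, 979, 906 and 965 in WT females, 5916, 6661 and 7648 in KO males, and 5794, 5882 and 6270 in KO females. Each KO liver held several times the level of any WT liver. The change of 2.62 (SE 0.101, limma adjusted p = 5.58e-10) was the largest of the 32 over both sexes on the log2(TPM + 1) scale, which understates low members such as *C5ar1* and *C3ar1*, and was 2.16 when rescaled. Bile duct cells also make clusterin, and the summed 5 cholangiocyte markers were at 27.7 to 58.5 TPM in WT and 252 to 713 in KO livers, none of them at 0 in a whole genotype. *Spp1* (osteopontin), which other cells also make, carried this sum, at 21.9 to 52.5 and 232 to 702 TPM. *Sox9* was higher too (log2 fold change 1.57, adjusted p = 0.000158), whereas *Epcam* fell by 0.35 (adjusted p = 0.0312), *Krt19* was at -0.12 (adjusted p = 0.707) and *Krt7* was too low to be tested. Their part in the *Clu* level was not tested. *C4bp*, which binds C4b, rose by 0.80 (SE 0.0924, adjusted p = 1.10e-05) and by 0.34 when rescaled (adjusted p = 0.0312). Within the sexes, *C4bp* passed in neither when rescaled (adjusted p = 0.319 in males and 0.0679 in females). *Serping1*, the C1 inhibitor, rose by 0.45, *Vtn* (vitronectin) by 0.46 and *Cfi*, the protease that degrades C3b, by 0.32. On the rescaled values *Serping1* stood at -0.00, *Vtn* at 0.00 and *Cfi* at -0.14, and none passed. *Cr1l*, the membrane regulator Crry, was at 18.5 to 23.6 TPM in WT and 25.3 to 31.3 in KO livers and rose by 0.43, but stood at -0.01 when rescaled. *Cd55*, another membrane regulator, overlapped between the genotypes at 2.06 to 6.95 TPM and did not pass on either scale.

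**Figure D3:**
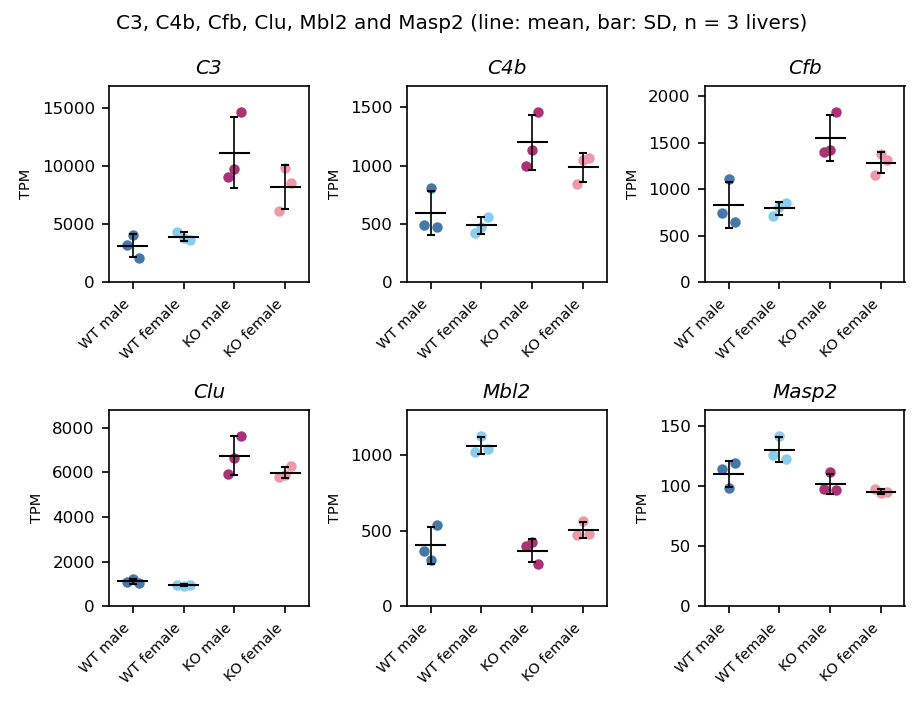
TPM in each liver (points) with the group mean (line) and SD (bar, n = 3) for *C3*, *C4b*, *Cfb*, *Clu*, *Mbl2* and *Masp2*, on linear axes from 0. KO livers lie above WT livers for *C3*, *C4b*, *Cfb* and *Clu*, and the 3 WT females lie above all others for *Mbl2*.

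The genes of the membrane attack complex did not move as one. *C8g*, for the gamma chain of C8, a lipocalin encoded apart from the other chains on chromosome 2, was at 381, 313 and 377 TPM in WT males, 386, 439 and 476 in WT females, 170.5, 211 and 129 in KO males, and 215, 174.5 and 188 in KO females. All KO livers lay below all WT livers. *C8g* fell by 1.13 (SE 0.123, limma adjusted p = 6.61e-06), in males by 1.09 and in females by 1.17, and when rescaled it was at -1.58, -1.65 and -1.51 in the same order. *C8a* and *C8b* encode the alpha and beta chains of the same protein, and over both sexes *C8a* rose by 0.73 (adjusted p = 0.0123, 0.28 rescaled with adjusted p = 0.407) while *C8b* was at -0.07 (adjusted p = 0.787, -0.53 rescaled with adjusted p = 0.110). *Hc*, the mouse gene of C5, rose by 0.49 (adjusted p = 0.0117) and was at 0.04 when rescaled. *C7* stayed low, at 0 to 0.647 TPM in WT and 0.388 to 1.54 in KO livers, with overlap. It differed by 0.66 (SE 0.162), having entered the tests only through its KO level, and with all genes above 0 tested its adjusted p was 0.00435.

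Within the sexes, 20 members were higher and 3 lower in KO males, against 43.3% and 2.81% of tested genes, and 20 higher and 3 lower in KO females, against 29.1% and 4.68%. Without *C5ar1* and *C7* it was 18 higher and 3 lower of 30 in each sex. Rescaled, 9 were higher and 4 lower in males (14.1% and 9.84% of tested genes) and 10 higher and 3 lower in females (15.4% and 10.6%), and without that pair 8 and 9 of 30 were higher. The lower members were *C8g*, *C8b* and *C9* in males and *C8g*, *Mbl2* and *Masp2* in females. When rescaled, *Masp2* was also lower in males (-0.67, adjusted p = 0.00227), and the 3 lower members in females were the same.

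In WT livers the sexes differed most in *C6*, the second protein to join the membrane attack complex. *C6* was at 143, 208 and 148 TPM in WT males and at 8.07, 8.72 and 9.39 in WT females. In KO livers it was at 192, 241 and 307 TPM in males and 157, 159.8 and 159 in females. The WT females stood far below the other 9 livers, and the KO females lay within the range of the WT males. *C6* rose in females by 4.04 (SE 0.181, limma adjusted p = 1.05e-08), 16.4-fold on the TPM + 1 scale. In males the rise of 0.56 (SE 0.181, adjusted p = 0.0239) did not outlast rescaling (-0.00, adjusted p = 0.991) and was lost on leaving out WT male 1 or 3 or KO male 2 or 3, with an adjusted p of at most 0.0972. The male effect minus the female effect was -3.48 (SE 0.256, adjusted p = 5.87e-06), and -3.71 when rescaled.

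The interaction of genotype and sex passed for 3 members, *C6*, *C8a* and *C9*, with the male effect lower in each, against 0.912% of all tested genes. The same 3 passed on the rescaled values, against 0.831%. *C8a* was at 383, 557 and 379 TPM in WT males, 114, 123 and 97.5 in WT females, 376, 449 and 565 in KO males, and 297, 298 and 279 in KO females. The WT females were again the lowest group, without overlap with any other. *C8a* rose in females by 1.38 (SE 0.183, limma adjusted p = 0.000118), was at 0.08 in males (adjusted p = 0.735; -0.49 when rescaled, adjusted p = 0.0907), and had an interaction of -1.31 (SE 0.259, adjusted p = 0.0320). *C9*, whose product forms the pore, was at 483, 710.0 and 481 TPM in WT males, 172, 175 and 224 in WT females, 356, 433 and 424 in KO males, and 309, 332 and 307 in KO females. Both KO groups lay between the WT groups, without overlap. *C9* rose in females by 0.74 (SE 0.172, adjusted p = 0.00534), fell in males by 0.44 (SE 0.172, adjusted p = 0.0499) and had an interaction of -1.18 (SE 0.243, adjusted p = 0.0394). When rescaled, the male fall of *C9* was -1.01 (adjusted p = 0.00348) and its female rise of 0.40 did not pass (adjusted p = 0.180). On the deposited scale its male fall was lost on leaving out any of 9 single libraries, all but WT male 1 and 3 and WT female 3, with an adjusted p of at most 0.199. The interaction call of *C8a* was lost on leaving out any of 9 single libraries, all but WT male 1 and 3 and KO male 3, with an adjusted p of at most 0.0938. That of *C9* was lost without any of the same 9 libraries as its male fall, with an adjusted p of at most 0.142, and both *C9* calls were lost with a covariate for the 1 WT and 1 KO female whose animal numbers in the labels are far lower than the rest. That of *C6* held without each of the 12 libraries. *C8b* had its group means in the same order as *C9*, with WT males at 288, 473 and 317 TPM, WT females at 87.1, 103 and 142, KO males at 192, 231 and 268, and KO females at 137, 159 and 158. *C8b* fell in males by 0.62 (adjusted p = 0.0331; -1.18 when rescaled, adjusted p = 0.00337), was at 0.47 in females (adjusted p = 0.111; 0.13 when rescaled), and its interaction of -1.09 did not pass (adjusted p = 0.209). On the deposited scale the *C8b* call in males was lost without WT male 2, KO male 1 or KO male 2 (adjusted p of at most 0.137).

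**Figure D4:**
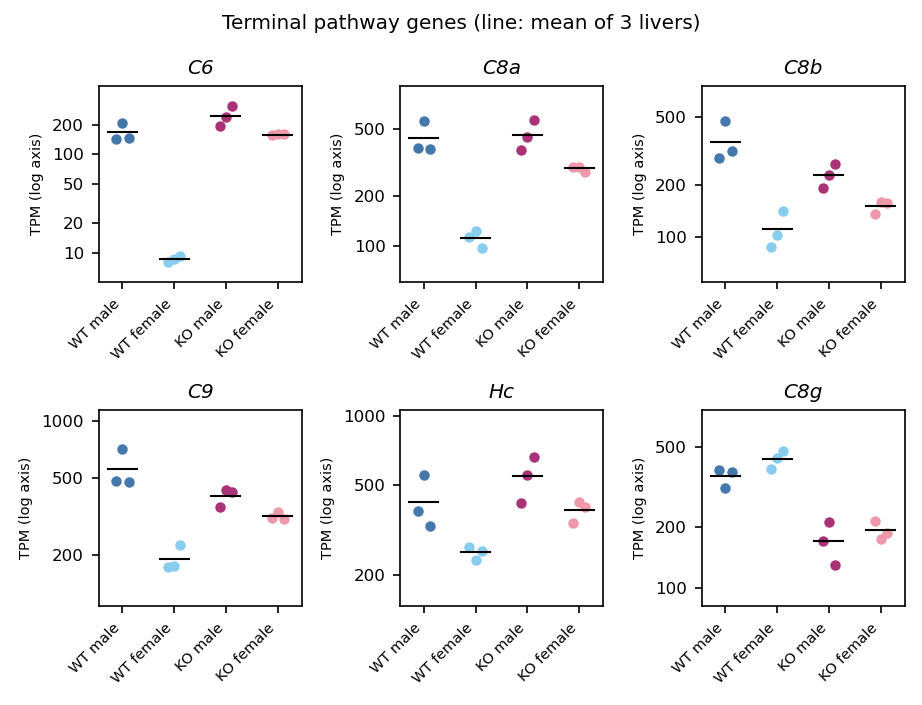
TPM of 6 membrane attack complex genes in each liver (points) with the mean of each group of 3 (line), on log axes. WT females lie lowest for *C6*, *C8a* and *C9*, both KO groups lie below both WT groups for *C8g*, and KO males lie above KO females for *C6*, *C8a*, *C8b* and *C9*.

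Among WT livers, 5 members were higher in males (*C2*, *C6*, *C8a*, *C8b* and *C9*) and 5 higher in females (*C1qa*, *C1qb*, *C1qc*, *Cfp* and *Mbl2*), against 1.14% and 4.60% of tested genes. The median tested gene was lower in WT males by 0.19, and by 0.02 after rescaling. On the rescaled values 6 members were higher in males, with *Hc* added, and *Cfp* and *Mbl2* were still higher in females, against 2.02% and 2.30% of tested genes. The male excess was 4.09 for *C6* (SE 0.181, limma adjusted p = 9.60e-09), 1.95 for *C8a*, 1.69 for *C8b* and 1.53 for *C9*, and these held without each single library. The *C2* difference of 0.57 (adjusted p = 0.0483) was lost without any of 10 libraries, all but WT male 1 and KO male 3. *Mbl2* was lower in WT males by 1.44 (SE 0.209, adjusted p = 0.00119), also without each library. *C1qa* was lower in WT males by 1.23 (adjusted p = 0.0287), *C1qb* by 1.09 (adjusted p = 0.0233) and *C1qc* by 1.06 (adjusted p = 0.0349). After rescaling their adjusted p-values were 0.0602, 0.0640 and 0.0809, and these calls were also lost with the covariate for low animal number. The calls of the C1q chains and *Cfp* were lost without WT female 1 or WT male 2, that of *C1qa* also without WT female 2, and that of *C1qc* also without WT female 2, WT male 1 or KO female 3. The summed 9 Kupffer cell and macrophage markers moved the same way, at 86.4 to 96.8 TPM in WT males and 144 to 287 in WT females, and their part in the difference was not tested. All 3 WT males lay above all 3 WT females for 11 members, against 5.99% of tested genes, and below them for 9, against 27.5%.

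Among KO livers no member passed between the sexes by limma on either scale, where 0.0814% of tested genes did on the deposited values and 0.0896% on the rescaled ones. At an unadjusted p under 0.05 there were 7 members, against 5.33% of tested genes. All 3 KO males still lay above all 3 KO females for 10 members, *C6*, *C8a*, *C8b* and *C9* among them, against 4.41% of tested genes. The male excess in KO was 0.61 (SE 0.181, adjusted p = 0.744) for *C6* and 0.65 (SE 0.183, adjusted p = 0.692) for *C8a*.

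Set side by side in each liver, the mean log2(TPM + 1) of the 21 hepatocyte-made members was 8.57 ± 0.154 (SD, n = 3) in WT males, 8.14 ± 0.0623 in WT females, 8.999 ± 0.147 in KO males and 8.76 ± 0.0421 in KO females. That of the 6 macrophage-made members was 2.87 ± 0.123, 3.72 ± 0.272, 5.15 ± 0.240 and 5.50 ± 0.328 in the same order. The macrophage-made mean thus differed between the genotypes by more than the spread within any group, and the hepatocyte-made mean of WT males came close to that of KO females. The difference between the class means, macrophage-made minus hepatocyte-made, ran from -6.01 to -4.05 in WT livers and from -4.17 to -2.85 in KO livers. The genotypes overlapped only through the highest WT female and the lowest KO male. The KO minus WT change in this difference, averaged over the sexes, was 1.51 (1.58 after rescaling). It is given as a description with no test. *C5ar1*, which entered the tests only through its KO level, is among the 6. Without it, again added after the data were seen, the macrophage-made mean was 3.36 ± 0.201 in WT males, 4.38 ± 0.350 in WT females, 5.69 ± 0.222 in KO males and 6.12 ± 0.382 in KO females, and the change in the difference was 1.52.

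**Figure D5:**
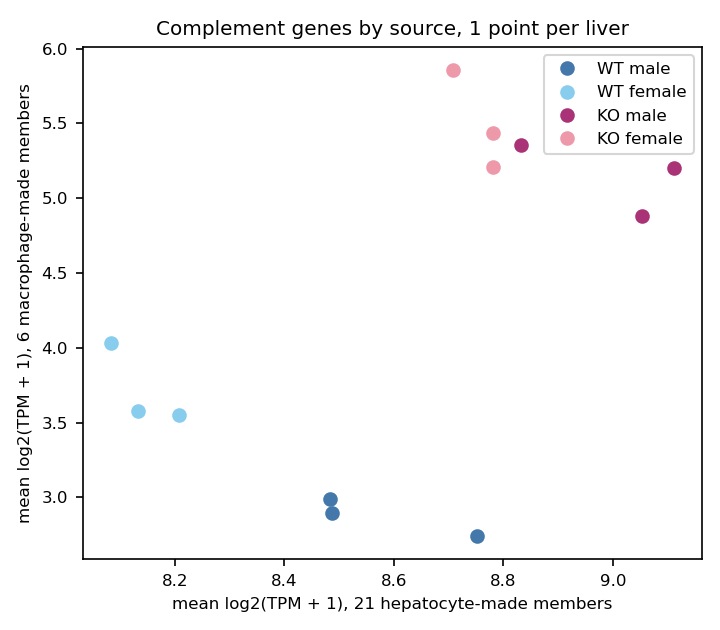
Mean log2(TPM + 1) of the 21 hepatocyte-made members (horizontal) and of the 6 macrophage-made members (vertical), 1 point per liver. The KO livers lie at 4.88 or more on the vertical axis and the WT livers at 4.03 or less, and WT females lie lowest on the horizontal axis.

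In order of level, *C3*, *Vtn*, *Clu*, *Cfb* and *Mbl2* led in WT livers, with means of 3537, 2843, 1037, 815 and 731 TPM. In KO livers the order was *C3*, *Clu*, *Vtn*, *Cfb* and *C4b*, at 9660, 6362, 3897, 1416 and 1093 TPM. Within the sexes, *Mbl2* ranked 11 in WT males and 13 in KO males, but 3 in WT females and 8 in KO females. *C8g* ranked 13 and 18 in males and 9 and 17 in females, and *C6* 18 and 15 in males and 26 and 19 in females. In WT the means of *C3* and *Vtn* lay closer together than the SD of *C3* over the 6 livers (802 TPM), and their ranges overlapped in males. In WT females *C3* (3621 to 4369 TPM) lay above *Vtn* (2890 to 3223 TPM). The order of *Cfb* and *Mbl2* turned with sex. In WT males *Cfb* spanned 645 to 1113 TPM and *Mbl2* 303 to 538. In WT females *Cfb* spanned 718 to 857 TPM and *Mbl2* 1016 to 1125.

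Beyond the 32 genes, 28 further complement genes were listed, of which 25 were found by symbol and 19 were tested. Of these 6 were higher in KO (*Itgam*, which entered through its KO level, *Itgax*, *Itgb2*, *Vsig4*, *Cpn1* and *Cpn2*), 5 lower, with the largest falls in *Susd4* and *Colec10*, and 8 did not pass, where 50.1% of all tested genes were higher and 4.82% lower. Rescaled, 4 were higher and 8 lower, where 21.3% and 18.0% of tested genes were, and *Cpn1* and *Cpn2* stood at -0.02 and -0.12. The receptors for C3 fragments on phagocytes were among the higher ones. *Vsig4*, the receptor by which Kupffer cells bind C3b, rose by 1.95 (SE 0.239, limma adjusted p = 1.77e-05), *Itgb2*, the shared chain of complement receptors 3 and 4, by 1.78 (SE 0.169, adjusted p = 1.94e-06) and *Itgax* by 1.47 (SE 0.105, adjusted p = 1.40e-07). *Itgam* is also in the list of recruited myeloid markers above. *Colec10*, a collectin of the lectin pathway, fell by 1.30 (SE 0.284, adjusted p = 0.00179). *Susd4*, a membrane protein that inhibits complement activation, was at 21.2, 32.6 and 26.6 TPM in WT males and 5.35, 6.14 and 4.29 in WT females, and at 0.0538 to 0.338 TPM in the 6 KO livers. It was low in every KO liver and, in WT, higher in males without overlap. *Susd4* fell by 3.50 (SE 0.324, adjusted p = 1.53e-06), with a male effect lower than the female one by 2.17 on the log2(TPM + 1) scale (SE 0.266, adjusted p = 0.000678). With all KO values below 1 TPM that difference depends on the pseudocount, and at 0.1 it did not pass (adjusted p = 0.0854).

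The authors' deposited table gave its own comparison of KO with WT, in which 8 members were higher and 5 lower at an FDR below 0.05, where 24.2% of its 17332 genes passed in either direction. Its log2 fold change was 2.23 for *C1qb*, 1.96 for *Clu*, -1.51 for *C8g* and -1.24 for *C8b*. For *C3* the authors' deposited table gave 0.71 with an FDR of 0.08, and for *C6* 0.29 with an FDR of 0.78. *C4b* (0.25, FDR 0.59), *C4bp* (0.12, FDR 0.80) and *Mbl2* (-0.61, FDR 0.12) did not pass in the authors' deposited table either. For 9 members called higher here on the deposited scale (*C1ra*, *C1s1*, *C2*, *Hc*, *C8a*, *Cfi*, *Serping1*, *Vtn* and *Cr1l*) the authors' deposited table had a negative log2 fold change. None of the 9 was called on the rescaled values. For *C9* the authors' deposited table had -0.90 (FDR 0.03). Its median log2 fold change over the tested genes was -0.01, where the values here had 0.35 on the deposited scale and -0.03 when rescaled.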

How the data were processed

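Expression was measured in 12 livers, 1 library each, and samples were grouped by the genotype and sex in their titles. Values are TPM as deposited by the authors, 1 column per mouse. The submitters' processing notes name edgeR and build GRCm38, and the aligner, the counter and the use of strand are not given in the sources used here. Every column was matched to 1 sample, leaving 0 unmatched. The authors' deposited fold changes and FDR values were read for comparison only. TPM keep no depth, so no counting intervals are given.

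Genes with a mean of at least 0.5 TPM were tested on log2(TPM + 1) with limma 3.58.1 in R 4.3.3 (intensity trend, two-sided, adjusted threshold 0.05). Genotype was fitted over all libraries with sex as covariate, and the other contrasts came from 1 model of the 4 groups. *Yap1* was tested by exact permutation within sexes. The limma step was tested on simulated data with the 12278 genes and recovered 85% of genotype changes of 1 and 99% of changes of 2 (log2), with 13 false calls among the unchanged genes. Only 100 genes were changed at each size, as many up as down. The simulation thus could not show calls that come from a shift of the median gene, such as the 0.35 on the deposited scale. The 7 alternatives and the 12 single-library omissions are described at the end. The rescaled values divide TPM by median-of-ratios factors over the tested genes.

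Positions came from GENCODE mouse release 21 and promoters from RefSeq. All 32 members were named, with *Yap1* and the 5 other complement genes of largest change among those past the threshold. Some values of the further complement genes are not reported here. The members, classes and lists were chosen with earlier results of these data known.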

Additional observations from a re-analysis of the deposited data

Results flagged for a closer look

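The genotype effect differed between the sexes for 4 complement genes by the interaction test of limma. The male effect minus the female effect was -3.48 for *C6*, -1.31 for *C8a*, -1.18 for *C9* and -2.17 for *Susd4*, on the log2(TPM + 1) scale. *C6*, *C8a* and *C9* rose in KO females from a low WT female level, and *Susd4* fell in both sexes from a WT level that was higher in males. The *Susd4* difference did not pass with a pseudocount of 0.1 (adjusted p = 0.0854), where its KO values near 0 weigh more. The *C8a* and *C9* differences were each lost without any of 9 of the 12 libraries and when all genes above 0 were tested, and the female rise of *C9* did not pass when rescaled.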

How the results depend on the processing

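Rescaling by median of ratios lowered the genotype calls among the 32 members from 26 to 17 (13 higher), those in males from 23 to 13 (9 higher) and those in females from 23 to 13 (10 higher). It brought the WT sex calls lower in males from 5 to 2, the hepatocyte-made median to -0.0011 and the macrophage-made median to 1.71. It turned the sign of *C1ra* (-0.10), *C1s1* (-0.0018), *Masp1* (-0.27), *C9* (-0.31), *Cfi* (-0.14), *Serping1* (-0.0011) and *Cr1l* (-0.0096) over both sexes, and of *C1ra* (-0.23), *C1s1* (-0.10), *C6* (-0.0044) and *Cfi* (-0.071) in males. These cover all members over both sexes and the called ones within a sex. With members that were not called, 8 turned in males and 6 in females, none of them called when rescaled. Testing all genes above 0 left 1 lower call in males, 1 interaction call (*C6*, lower) and 3 WT sex calls lower in males. In the labels 1 WT female and 1 KO female carry a much lower animal number than the rest. With that as a covariate 6 WT sex calls were left, 2 of them lower. It ended the WT sex calls of *C1qa*, *C1qb*, *C1qc* and *C2*, the *C9* interaction, and the calls of *C9* and *C1ra* in males and *C7* in females. A pseudocount of 0.1 gave a macrophage-made median of 2.35 and a class difference of 1.92. A narrower class of 12 of the hepatocyte-made members gave a median of 0.23, below the 0.35 of all tested genes, and a class difference of 1.77. When rescaled, that narrower class had a median of -0.22 against -0.03 for all tested genes, with 2 members higher and 4 lower. The causes were not tested.

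Leaving out single libraries moved the lower calls in males between 1 and 3, the interaction calls between 1 and 4 (0 to 1 higher, 1 to 3 lower) and the WT sex calls between 5 and 10 (1 to 5 lower). Over both sexes it moved *C8b* between -0.20 and 0.084, *Cfd* between -0.26 and 0.85 and *Cd55* between -0.15 and 0.094. Removing the 20 most abundant genes from the total, a filter at 1 TPM and a fit without trend reversed none of the gene results. The first of these ended the calls of *Cfi* over both sexes, *C1ra* in each sex, *C6* in males and *Hc* in females, and the fit without trend those of *C1ra* and *C9* in males, *C2* between WT sexes and the *C9* interaction. No paired analysis was possible because the labels give no replicate numbers shared between groups. The depth behind each TPM value was not estimated, so low values such as those of *C7* and *Cfd* carry unknown counting error.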
